A study of Mus musculus with 16 samples.

Results

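The miR-143 and miR-145a hairpins were followed in mouse 3T9 fibroblasts that were brought out of quiescence with serum. The 4 mature arms of these 2 hairpins (mmu-miR-143-3p, mmu-miR-143-5p, mmu-miR-145a-5p and mmu-miR-145a-3p) were chosen by name from 1167 mature miRNAs in the deposited small RNA counts. Cells of the 3T9 line, immortalised mouse embryo fibroblasts, went without serum for 72 h and then received 10% fetal bovine serum. Libraries were taken after 0, 1, 2, 4, 6, 8, 10 and 12 h of serum, with 2 per time from separate experiments (replicates 1 and 2). The 0 h libraries are the serum-deprived cells, and every later group shares their line and their 72 h without serum. No group was kept without serum beyond 0 h, so time in culture and serum cannot be told apart. All libraries of a replicate number were read in 1 sequencing run, and effects of run and of experiment likewise cannot be told apart.

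Each library held 5852087 to 7783249 miRNA reads, and the pair of libraries at a time was further apart than counting error allows (chi-square of 58.8 to 324 per degree of freedom). Levels are given as CPM, miRNA reads scaled to a common library total with TMM factors and not by length, since a read spans a whole small RNA. The line was checked against miRNAs typical of mesenchymal cells. All 8 listed mesenchymal miRNAs passed the filter on low counts, and together they made up 335781 to 444292 CPM. That list includes miR-143-3p and miR-145a-5p themselves. Listed miRNAs of skeletal and heart muscle summed to 0.979 to 2.67 CPM and those of blood to 1.96 to 4.09 CPM. Neither list held miR-486, known from muscle and red cells, of which miR-486a-5p averaged 119.9 CPM and miR-486b-3p 159 CPM. The 6 epithelial miRNAs summed to 64.6 to 138 CPM, of which miR-205-5p alone gave 63.5 to 137 CPM.

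miR-143 and miR-145 are made from neighbouring hairpins of 1 long primary transcript. In the RefSeq annotation Mir143 and Mir145a lie on chromosome 18 inside the host gene Carmn, a long non-coding RNA gene also called Mir143hg. Serum response factor (SRF), with its partner myocardin, is known to switch this transcript on in smooth muscle, and serum activates SRF in fibroblasts. miR-145 is known to repress Klf4 and Klf5, and miR-143 to repress Elk1, a cofactor of SRF, and both favour the contractile state of smooth muscle cells. Dicer cuts each hairpin into a 5p and a 3p arm, of which Argonaute mostly keeps 1, the guide. Terminal transferases can then add uridines (TUT4, TUT7) or adenosines (TENT2) to the 3' end of a mature miRNA, and nucleases can shorten it.

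The 4 arms stood in the same order of abundance in all 16 libraries, and they spanned a wide range. miR-143-3p, the guide of its hairpin, averaged 136120 CPM and ranked 2 among all miRNAs. Its reads made up 10.7% to 14.6% of a library, and all 4 arms together made up 10.9% to 14.8%. miR-145a-5p averaged 900.1 CPM (rank 64), miR-145a-3p 521.7 CPM (rank 77) and miR-143-5p 107 CPM (rank 139). miR-145a-5p held 5.06 to 9.41 reads per 1000 reads of miR-143-3p. How reads of different sequences relate to numbers of molecules was not tested, here and for the arm shares below. All 4 arms passed the filter on low counts, which kept 449 miRNAs. The ratio of the highest to the lowest library was 1.43 for miR-143-3p, 1.51 for miR-143-5p, 1.61 for miR-145a-3p and 1.64 for miR-145a-5p.

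None of the 4 arms passed edgeR's quasi-likelihood test for any change over the course (adjusted p = 0.848 for miR-143-3p, 0.543 for miR-143-5p, 0.351 for miR-145a-5p and 1 for miR-145a-3p, Benjamini-Hochberg over 449 miRNAs). In that test 13.8% of the tested miRNAs passed, and no arm had an unadjusted p under 0.05, where 104 of the 449 miRNAs did. Set against 0 h, none of the 4 passed at 1 h, where 0.445% of all tested miRNAs did, or at 2 h (2.45%). The same held at 4 h (7.57%), 6 h (7.8%), 8 h (9.58%), 10 h (11.8%) and 12 h (14.3%). With the replicate number as a block more miRNAs passed, between 5 at 1 h and 108 at 12 h. Among them were miR-143-5p at 4 h and miR-145a-5p at 12 h. On the linear trend over all 16 libraries 25.2% of miRNAs passed and none of the 4 arms did, while miR-145a-5p did with the block. At least 113 of the 449 miRNAs passed the trend with the block. At an unadjusted p under 0.05 there was 1 arm at 4 h (miR-143-5p), 1 at 12 h and 1 on the trend (miR-145a-5p both times). Of all 449 miRNAs, 90 were under that level at 4 h, 121 at 12 h and 165 on the trend. By limma-voom none passed either, and DESeq2 called 1 (miR-143-5p at 4 h, adjusted p = 0.0312). In bulk RNA a lower level in each cell and fewer cells that hold the miRNA cannot be told apart.

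mmu-miR-143-3p stood at 125099, 142286, 141471, 135280.0, 143216, 154442, 155847 and 143018 CPM in replicate 1 at 0, 1, 2, 4, 6, 8, 10 and 12 h. In replicate 2 the levels at the same times were 133324, 126180.0, 135008, 112146, 123301, 146192, 108932 and 152170.0 CPM. The lowest and the highest of the 16 values, 108932 and 155847 CPM, were both at 10 h, so the replicates of that time lay as far apart as any in the course. It averaged 147594 ± 6471 CPM at 12 h against 129212 ± 5816 CPM at 0 h (SD, n = 2). The log2 change was 0.19 ± 0.14 (SE; edgeR adjusted p = 0.421), and the slope of its log2 level was 0.0117 ± 0.0082 per hour (SE; adjusted p = 0.326), or 0.0185 without the 10 h library of replicate 2 (adjusted p = 0.0595).

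mmu-miR-143-5p, the passenger arm, was at 89.5, 116, 105, 123, 125, 125, 106 and 106 CPM in replicate 1 over the same times. Replicate 2 had 91.8, 101, 86.3, 131, 103, 103, 111 and 98.4 CPM. The 4 h libraries had 123 and 131 CPM, and the 0 h libraries had 89.5 and 91.8 CPM. The log2 change at 4 h was 0.48 ± 0.17 (SE; edgeR adjusted p = 0.101). In a fit that kept the replicate number as a block it was 0.48 and passed (adjusted p = 0.0200). At 12 h miR-143-5p averaged 102 ± 5.13 CPM against 90.6 ± 1.57 CPM at 0 h (SD, n = 2), a log2 difference of 0.17 ± 0.17 (SE; adjusted p = 0.573). Its values rest on 572 to 1004 reads per library.

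mmu-miR-145a-5p, the guide of the other hairpin, had 978, 1000.4, 911, 868, 862, 817, 788 and 724 CPM in replicate 1. In replicate 2 it had 1040.0, 1187, 725, 836, 973, 915, 942 and 836 CPM. Replicate 1 was lower at each time from 2 h on than at the time before, while replicate 2 had its lowest value at 2 h and was higher again from 4 h. At 12 h miR-145a-5p averaged 780 ± 79.2 CPM against 1009 ± 43.8 CPM at 0 h (SD, n = 2). The log2 change at 12 h was -0.37 ± 0.15 (SE; edgeR adjusted p = 0.135), and with the replicate number as a block -0.37 (adjusted p = 0.0449). The slope was -0.0255 ± 0.00982 per hour (SE; adjusted p = 0.0648) and with the block -0.0258 (adjusted p = 0.0381). Within replicate 1 alone the slope was -0.0350 (adjusted p = 0.00106) and within replicate 2 alone -0.0168 (adjusted p = 0.571). The test of the difference between these slopes gave an adjusted p of 0.867, and over all 449 miRNAs it called 0, with 24 at an unadjusted p under 0.05 (edgeR).

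mmu-miR-145a-3p had 509, 582, 598, 588, 673, 627, 560.4 and 507 CPM in replicate 1 and 516, 501, 505, 483, 419, 429, 429 and 420.3 CPM in replicate 2. The replicates were alike at 0 h, and at every later time replicate 1 lay above replicate 2, by the widest margin at 6 h. At 12 h it averaged 464 ± 61.6 CPM against 513 ± 5.29 CPM at 0 h (SD, n = 2). The log2 difference was -0.14 ± 0.24 (SE; edgeR adjusted p = 0.750). Its slope was -0.00175 per hour in replicate 1 alone and -0.0273 in replicate 2 alone, and the test of their difference gave an adjusted p of 0.753.

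Scaling bears on these small differences. When libraries were scaled by total counts instead of TMM, the median miRNA moved by -0.15 on the log2 scale at 8 h, -0.16 at 10 h and -0.15 at 12 h. Under it miR-145a-5p passed at 12 h (-0.53, edgeR adjusted p = 0.0480) and on the slope (-0.0388, adjusted p = 0.00955), while the slopes of miR-143-3p and miR-143-5p turned to -0.00178 and -0.00396. Of all 449 miRNAs, 23 passed higher and 45 lower at 12 h under total counts. On the slope 37 passed rising and 111 falling, with a median slope of -0.0142 per hour.

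**Figure D1:**
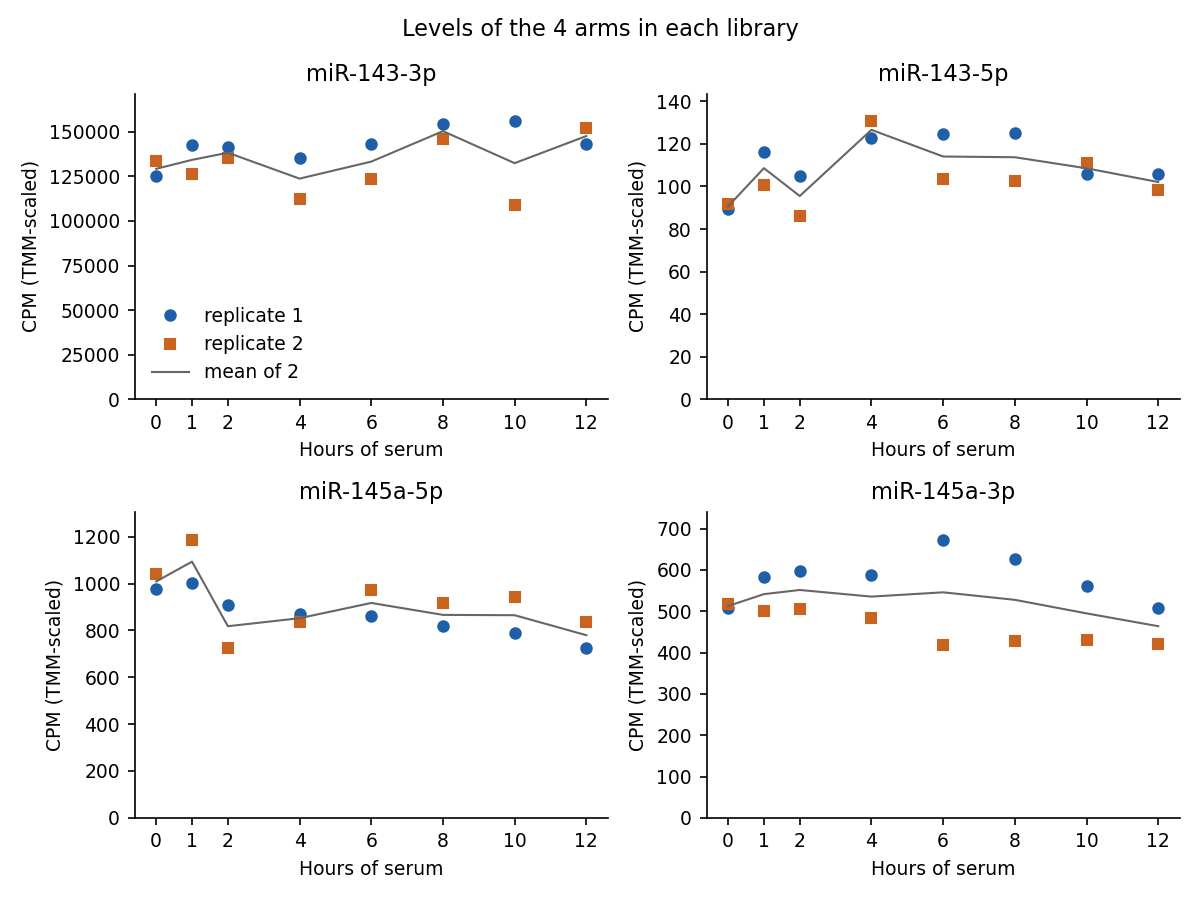
Level of each arm (TMM-scaled CPM, linear axes from 0) against hours of serum, with 1 point per library and a line through the mean of the 2 libraries of a time. miR-145a-3p in replicate 1 lies above replicate 2 from 1 h to 12 h, and miR-143-3p is spread widest at 10 h, between 108932 and 155847 CPM.

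The hairpins differed widely in how their reads were split between arms. The 5p arm of miR-143 took a mean of 0.0798% of the hairpin's reads (0.0639% to 0.116% by library). That was the 4th lowest share of the minor arm among the 103 hairpins whose arms each averaged at least 10 reads. The rest of the 401 hairpins with both arms in the counts were not ranked. The minor 3p arm of miR-145a took a mean of 36.8% (29.7% to 43.8%), against a median of 10.5% over the 103 hairpins (quartiles 1.35% and 30.3%). The share of the miR-145a minor arm was thus above the upper quartile, and that of miR-143 below the lower one.

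Neither arm ratio passed limma's test on the log2 ratio of minor to major arm, in which 24.3% of the 103 hairpins passed on the slope and 12.6% at 12 h. With the replicate number as a block 24 hairpins passed at 12 h, neither of these 2 among them. For miR-143 the slope was -0.00079 ± 0.015 per hour (SE; adjusted p = 0.958, limma), and the 12 h difference from 0 h was -0.02 (adjusted p = 0.941). For miR-145a the slope was 0.0101 ± 0.017 per hour (SE; adjusted p = 0.715, limma), and the 12 h difference was 0.22 ± 0.31 (SE; adjusted p = 0.678). Leaving out 1 library moved this slope between 0.0023 (without 1 h replicate 2) and 0.0186 (without 12 h replicate 2). The 3p share of miR-145a was 34.2%, 36.8%, 39.7%, 40.4%, 43.8%, 43.4%, 41.6% and 41.2% over time in replicate 1. In replicate 2 it was 33.2%, 29.7%, 41.0%, 36.6%, 30.1%, 31.9%, 31.3% and 33.5%. From 4 h on replicate 1 lay above replicate 2 at every time, and the slope was 0.0330 in replicate 1 alone (adjusted p = 0.0557, limma) and -0.0128 in replicate 2 alone (adjusted p = 0.661). Of the comparison hairpins in the same fit, which are also abundant in fibroblasts, miR-214 rose in its minor share (slope 0.0446, adjusted p = 0.0148) and miR-21a fell (-0.0634, adjusted p = 0.0209). miR-22 (-0.0321, adjusted p = 0.0850) and miR-199a (-0.0118, adjusted p = 0.380) did not pass.

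Between the hairpins, miR-145a-5p had 7.82, 7.03, 6.44, 6.42, 6.02, 5.29, 5.06 and 5.06 reads per 1000 reads of miR-143-3p in replicate 1. Replicate 2 had 7.80, 9.41, 5.37, 7.46, 7.89, 6.26, 8.65 and 5.49. The 12 h libraries had 5.06 and 5.49, and the 0 h libraries had 7.82 and 7.80. Replicate 1 was lower at each time up to 10 h than at the time before, while replicate 2 moved up and down. The log2 ratio was correlated with hour over 16 libraries at Pearson's r = -0.528 (permutation p = 0.0372, 2-sided, 100000 resamples) and Spearman's rho = -0.544 (permutation p = 0.0321, also 2-sided). This was the 1 relation of its kind that was computed, so its adjusted p is the same. The relation did not hold without the 12 h libraries, the 2 farthest from the median hour (r = -0.364, permutation p = 0.197, n = 14). By Pearson's r it also missed the threshold without any 1 of 7 libraries, among them both 0 h libraries. By Spearman's rho it passed without either 0 h library (rho = -0.532 each time). It missed by rho without the 8, 10 or 12 h library of replicate 1 or the 1 or 12 h library of replicate 2. Within replicate 1 r was -0.963 (exact 2-sided permutation p = 0.000347, n = 8) and within replicate 2 it was -0.303 (exact 2-sided permutation p = 0.451, n = 8), and the difference between them was not tested.

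**Figure D2:**
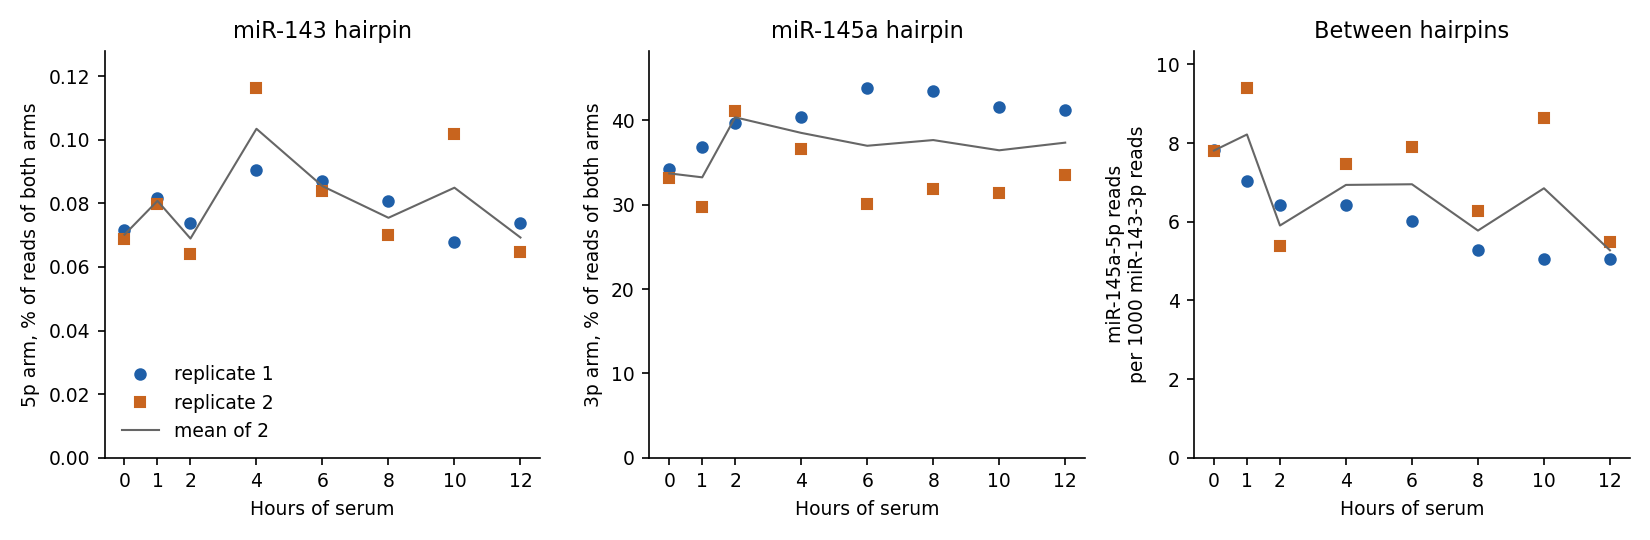
Share of the minor arm in the reads of each hairpin (left and middle, percent) and reads of miR-145a-5p per 1000 reads of miR-143-3p (right), by library against hours of serum, with a line through the mean of 2. In the right panel replicate 1 lies at 5.06 at 12 h against 7.82 at 0 h, while replicate 2 moves between 5.37 and 9.41.

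The deposited counts also sort the reads of each arm by their ends. The classes are reads equal to the reference, trimmed reads, reads extended by bases that match the hairpin (templated) and reads with bases that do not (non-templated). The non-templated 3' class is split further into forms with added A, U, C, G or a mixture of bases, which are nested in it. What each class means was taken from its name in the deposited counts. A share is the percentage of an arm's reads that fall in a class, so library scaling does not enter. Since the shares of an arm sum to 100, a rise of one class has to be met by a fall of others.

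The 4 arms had clearly different end profiles. Trimmed and extended are defined against a reference sequence whose release is not given. Whether that sequence matches the main product of each arm was not tested. Of miR-143-3p reads a mean of 45.6% equalled the reference, 32.6% were trimmed, 5.12% carried templated and 16.2% non-templated 3' bases. Reads with templated bases added at the 5' end, which would shift the seed, were 0.474% to 0.523% of this arm. Of miR-145a-5p reads 75.0% equalled the reference, 8.61% were trimmed, 6.96% had templated and 9.37% non-templated 3' bases. miR-143-5p matched its reference in only 4.20% of reads, rank 186 of 194 miRNAs, while 48.3% had templated and 47.3% non-templated 3' bases. Its mixed additions, a mean of 40.1%, were the 4th highest share of that form among 143 miRNAs. miR-145a-3p was trimmed in 99.6% to 100% of its reads in every library, the highest mean share among 192 miRNAs, and 0 to 12 reads per library equalled its reference. A count of 0, found in the 1 h and 8 h libraries of replicate 2, allows a share of up to 0.0877% and 0.119% (3 counts of the arm's reads, counting error only).

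**Figure D3:**
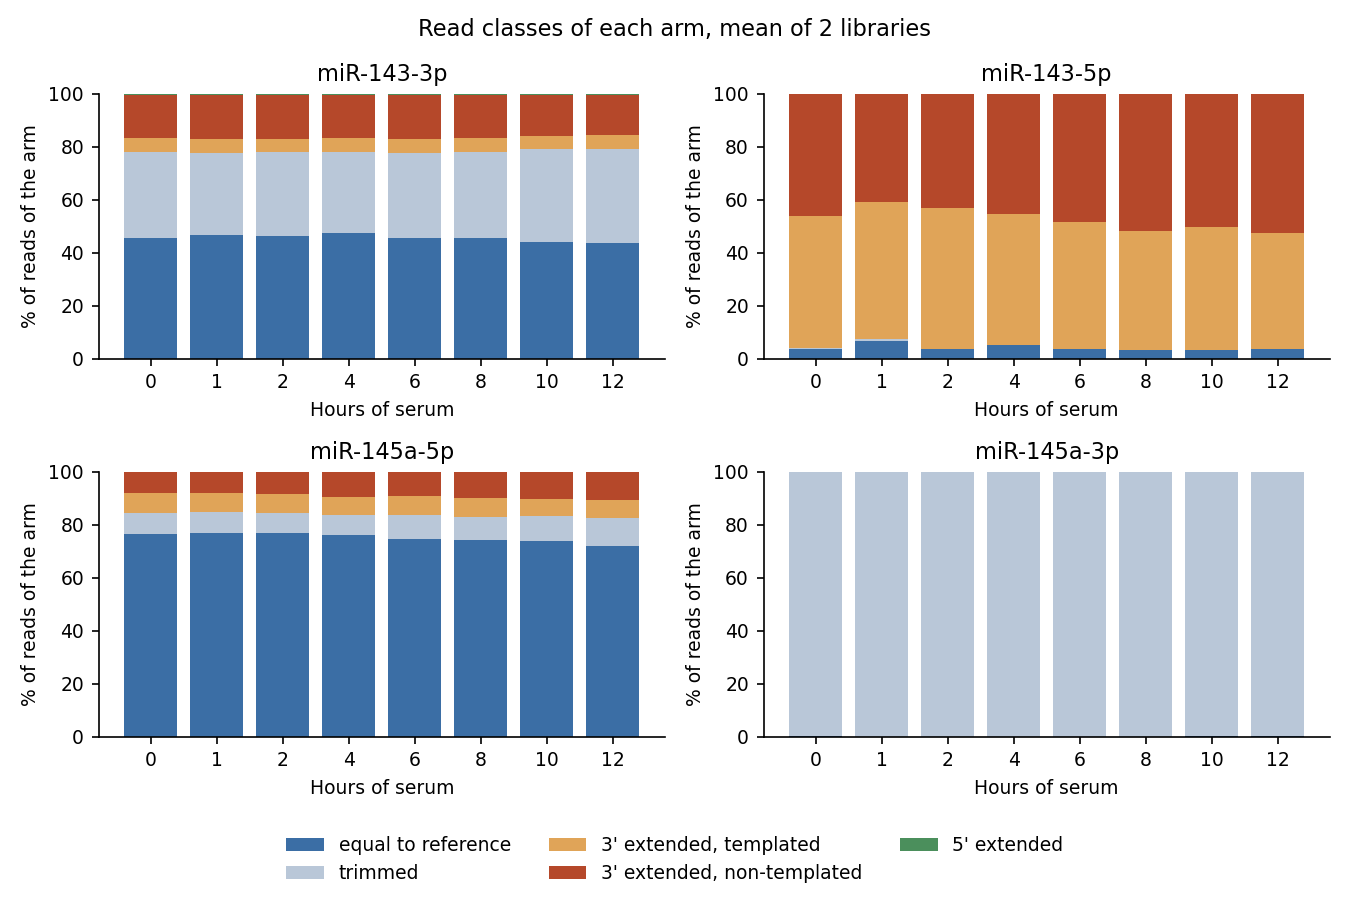
Mean share (percent of the reads of an arm, 2 libraries per time) of the read classes, stacked to 100%, against hours of serum. Reads equal to the reference make up most of miR-145a-5p (mean 75.0%), extended reads make up nearly all of miR-143-5p, and trimmed reads make up nearly all of miR-145a-3p.

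Uridine was the base added most often to miR-143-3p, and adenine to miR-145a-5p. U-forms made up a mean of 15.5% of miR-143-3p reads (rank 18 of 130 miRNAs, median 2.75%), while A-forms made up 0.0329%, the lowest A share of 140 miRNAs (median 2.78%). In each library it held 37.4% to 47.8% of the U-form reads of all miRNAs. Of miR-145a-5p reads 4.26% were A-forms and 1.36% U-forms. On miR-143-5p A-forms were 5.07% and U-forms 1.93% of reads.

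Over the course of serum the shares of some end classes changed on miR-145a-5p (7 of 8 classes tested), miR-143-5p (3 of 6) and miR-143-3p (3 of 11), and the 1 class tested on miR-145a-3p did not pass. Of 26 pairs of an arm and a class with enough reads, 13 passed limma's test on the slope of the log odds per hour, 10 rising and 3 falling. Over all 1344 pairs of a miRNA and a class 33.9% passed. The pairs share reads within an arm, so these counts are not independent. At 12 h against 0 h 5 of the 26 passed (4 higher, 1 lower), beside 15% of all pairs. With the replicate number as a block 451 of the 1344 passed, these 5 among them. So did the A share of miR-143-3p, the trimmed share of miR-145a-5p and the templated, non-templated and mixed shares of miR-143-5p. For the remaining pairs of the 26 the 12 h result with the block is not given. Of the 13 slopes, 10 passed under every alternative that was run, and the trimmed share of miR-143-3p and the U and C shares of miR-145a-5p did not.

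Mixed additions rose on all 3 arms that had enough such reads to test. So did most other miRNAs that passed: 41.3% of the 143 miRNAs tested for this form passed on the slope, 55 of them rising and 4 falling. On miR-143-3p the mixed share was 0.443%, 0.440%, 0.457%, 0.497%, 0.519%, 0.551%, 0.543% and 0.596% over time in replicate 1. In replicate 2 it was 0.418%, 0.409%, 0.395%, 0.437%, 0.499%, 0.510%, 0.524% and 0.571%. All libraries from 6 h on lay above all libraries up to 4 h, narrowly (0.499% at 6 h in replicate 2 against 0.497% at 4 h in replicate 1). This cut in time, like those given for miR-145a-5p below, was read off the values and was not tested. The slope was 0.0275 ± 0.0034 per hour (SE; adjusted p = 8.39e-06, limma), and the 12 h share was 0.584 ± 0.0177% against 0.430 ± 0.0176% at 0 h (SD, n = 2; adjusted p = 0.00791). The 12 h call ended without the 12 h library of replicate 1 (adjusted p = 0.0579) or the 0 h library of replicate 2 (adjusted p = 0.0611), while the slope passed in either replicate alone (0.0252 and 0.0298).

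On miR-145a-5p the mixed share was 3.07%, 2.97%, 3.12%, 3.73%, 3.61%, 4.11%, 3.65% and 4.79% in replicate 1. Replicate 2 had 2.72%, 2.60%, 2.96%, 3.72%, 3.35%, 4.09%, 4.15% and 4.40%. All libraries from 4 h on lay above all libraries up to 2 h. The slope was 0.0398 ± 0.0053 per hour (SE; adjusted p = 2.19e-05, limma), with 4.60 ± 0.276% at 12 h against 2.90 ± 0.251% at 0 h (SD, n = 2; adjusted p = 0.00260). On miR-143-5p the mixed share was 44.8 ± 2.15% at 12 h against 36.7 ± 4.18% at 0 h (SD, n = 2), and the slope was 0.0370 ± 0.0064 per hour (SE; adjusted p = 0.000257). For scale, the mixed slopes of the comparison arms were 0.0462 for miR-199a-5p, 0.0463 for miR-199a-3p, 0.0251 for miR-214-3p, 0.0231 for miR-21a-5p and 0.0175 for miR-22-3p, which all passed. That of miR-21a-3p, -0.0085, did not (adjusted p = 0.771).

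Adenine additions rose on both guide arms. The A share of miR-145a-5p was 3.35%, 3.61%, 3.96%, 4.24%, 4.17%, 4.38%, 4.92% and 4.34% in replicate 1 over time. In replicate 2 it was 3.32%, 3.67%, 4.02%, 4.85%, 4.75%, 4.70%, 4.97% and 4.95%. The 2 experiments gave close values at 0, 1 and 2 h, and no library from 4 h on fell to the level of an earlier one. The slope was 0.0280 ± 0.0055 per hour (SE; adjusted p = 0.000732, limma), and the 12 h share was 4.64 ± 0.432% against 3.33 ± 0.0202% at 0 h (SD, n = 2; adjusted p = 0.0127). The 12 h call ended without either 0 h library (adjusted p = 0.0591 and 0.0709) or the 12 h library of replicate 2 (adjusted p = 0.105).

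On miR-143-3p the A share was far smaller, 0.0187%, 0.0208%, 0.0191%, 0.0224%, 0.0262%, 0.0265%, 0.0332% and 0.0327% in replicate 1. It was 0.0295%, 0.0319%, 0.0290%, 0.0376%, 0.0390%, 0.0499%, 0.0523% and 0.0578% in replicate 2. Replicate 2 lay above replicate 1 at every time, and within each replicate the latest libraries were the highest. The slope was 0.0549 ± 0.015 per hour (SE; adjusted p = 0.00959, limma), and 0.0499 and 0.0599 in replicate 1 and replicate 2 alone. At 12 h the difference on the log odds scale, 0.61 ± 0.31 (SE), did not pass (adjusted p = 0.225) and with the replicate number as a block it did (adjusted p = 6.79e-06). Without 1 of the 0 h or 12 h libraries the difference was between 0.33 (without 12 h replicate 2) and 0.90 (without 12 h replicate 1). The number of A reads behind these shares was 167 to 559 per library. On miR-143-5p the slope of the A share was -0.0125 per hour (adjusted p = 0.534). Of the 140 miRNAs tested for the A form 24.3% passed, 30 rising and 4 falling.

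Uridine additions did not share that direction. The U share of miR-143-3p was 16.1%, 16.7%, 17.5%, 17.2%, 16.8%, 16.6%, 15.8% and 15.1% in replicate 1, and 15.2%, 15.2%, 14.6%, 14.2%, 15.1%, 14.5%, 13.5% and 13.4% in replicate 2. Replicate 1 was above replicate 2 at every time, and in both the 12 h library was the lowest. The slope was -0.00972 ± 0.0053 per hour (SE; adjusted p = 0.170, limma), and with the replicate number as a block the same slope passed (adjusted p = 0.00296). The whole non-templated 3' share of this arm, which U-forms dominate, had a slope of -0.00825 (adjusted p = 0.232, limma; 0.00881 with the block). The U share of miR-145a-5p fell, to 1.24 ± 0.347% at 12 h against 1.64 ± 0.0230% at 0 h (SD, n = 2). Its slope of -0.0244 ± 0.0090 per hour (SE; adjusted p = 0.0459, limma) lost the call in 11 of the 16 fits that left out 1 library and within either replicate alone. Of 130 miRNAs tested for the U form 23.1% passed, 8 rising and 22 falling.

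**Figure D4:**
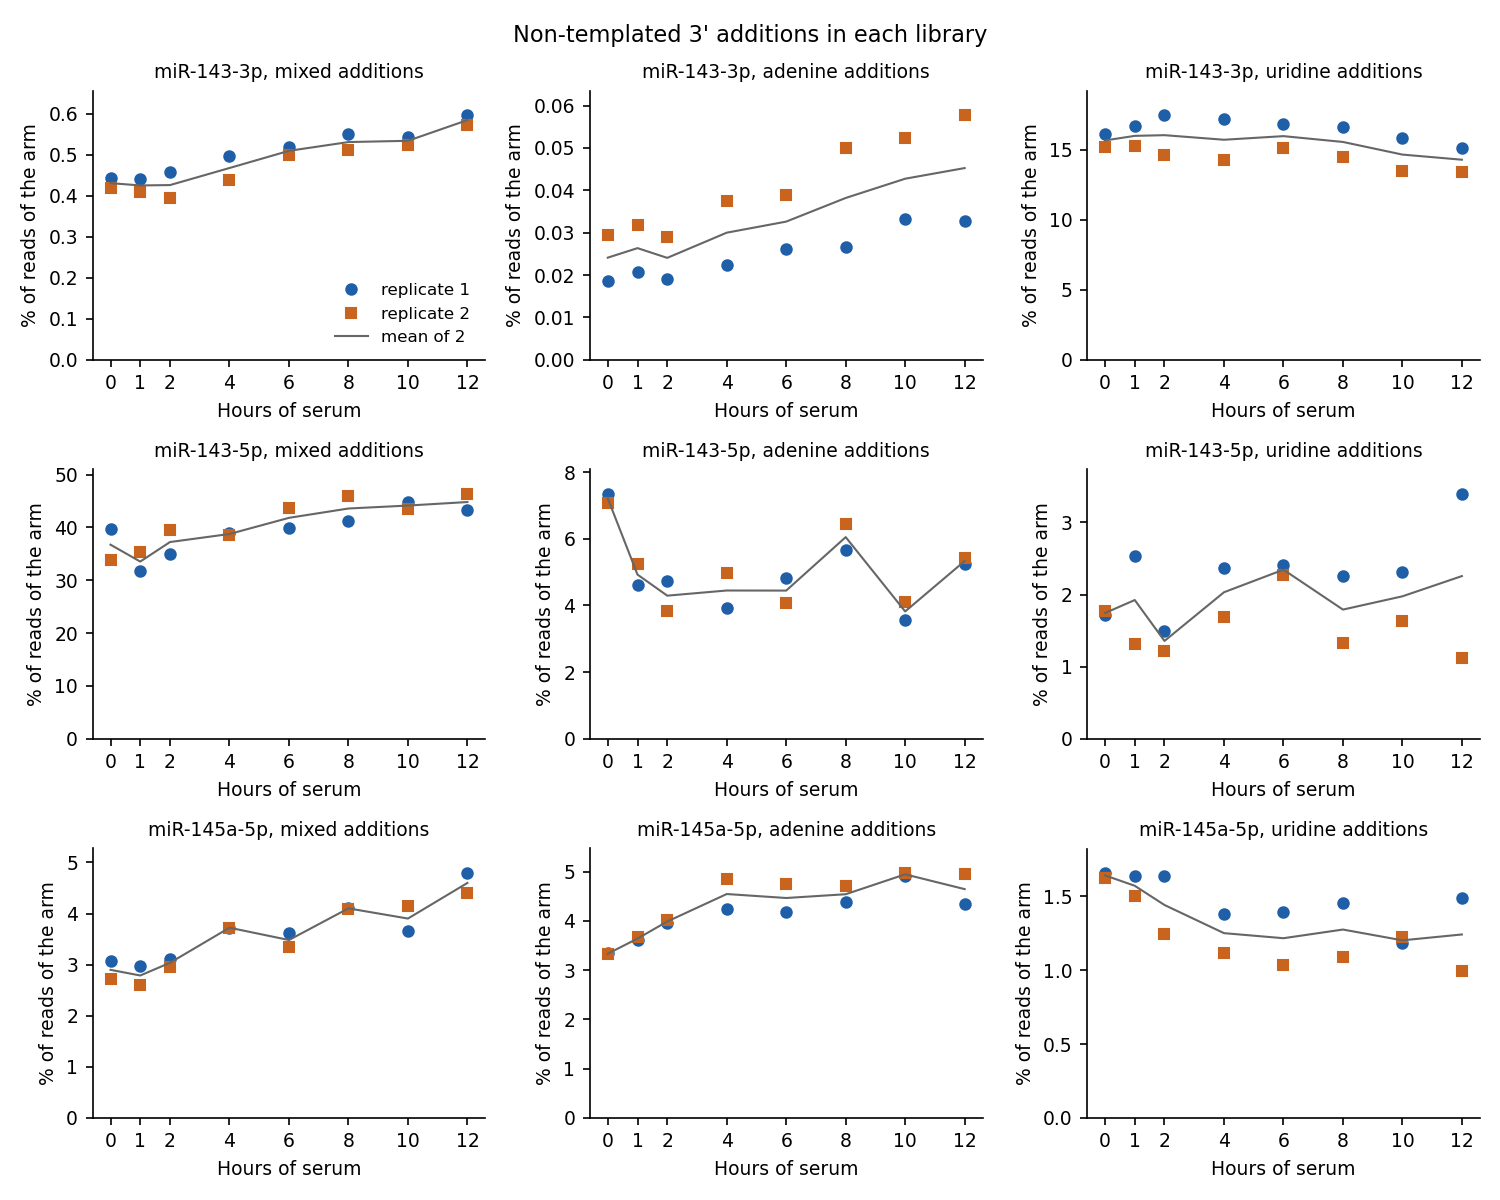
Share of reads with mixed, A or U additions at the 3' end (percent of the reads of an arm, axes from 0) for the 3 arms that carry them, by library against hours of serum, with a line through the mean of 2. Mixed additions rise on every arm shown, A additions rise on miR-143-3p and miR-145a-5p, and the U share of miR-143-3p stays between 13.4% and 17.5%.

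Reads equal to the reference became less frequent on miR-145a-5p. On this arm the share equal to the reference was 75.5%, 75.9%, 76.9%, 76.9%, 74.3%, 74.2%, 73.4% and 70.9% in replicate 1 and 77.2%, 77.7%, 76.8%, 75.1%, 74.8%, 73.9%, 74.0% and 73.1% in replicate 2. It fell, with all libraries from 6 h on below all libraries up to 4 h, at a slope of -0.0203 ± 0.0032 per hour (SE; adjusted p = 9.64e-05, limma). The 12 h share was 72.0 ± 1.54% against 76.3 ± 1.21% at 0 h (SD, n = 2; adjusted p = 0.0265), a call that ended without the 12 h library of replicate 1 (adjusted p = 0.165) or the 0 h library of replicate 2 (adjusted p = 0.175). Over all miRNAs 47.4% of 194 passed for this class, 30 rising and 62 falling.

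Other classes of miR-145a-5p took higher shares. Its non-templated 3' share rose to 10.7 ± 0.123% at 12 h, against 8.01 ± 0.284% at 0 h (SD, n = 2; slope 0.0264 ± 0.0033 per hour, adjusted p = 1.08e-05, limma; 12 h adjusted p = 0.00260). For this class 42.5% of 181 miRNAs passed on the slope, 64 rising and 13 falling. The trimmed share rose at a slope of 0.0259 ± 0.0064 per hour (SE; adjusted p = 0.00466), with 10.4 ± 0.478% at 12 h against 8.13 ± 0.151% at 0 h (SD, n = 2). The 12 h difference of the trimmed share did not pass (adjusted p = 0.136) and with the replicate number as a block it did (adjusted p = 0.0235). The C form rose at 0.0571 ± 0.020 per hour (adjusted p = 0.0331), on 2 to 11 reads per library, and lost the call in 5 of the 16 fits that left out 1 library and within either replicate alone. For the C form 14.9% of 74 miRNAs passed. The templated 3' share was the 1 class of miR-145a-5p that did not pass (adjusted p = 0.448).

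On miR-143-5p the non-templated 3' share rose and the templated one fell. The templated share was 48.4%, 54.5%, 54.5%, 50.0%, 48.9%, 45.9%, 46.9% and 43.8% in replicate 1 and 51.6%, 49.1%, 51.7%, 48.5%, 46.2%, 43.8%, 45.8% and 43.0% in replicate 2. It averaged 43.4 ± 0.619% at 12 h against 50.0 ± 2.25% at 0 h (SD, n = 2), with a slope of -0.0279 ± 0.0053 per hour (SE; adjusted p = 0.000591, limma), where 28.7% of 157 miRNAs passed, 25 rising and 20 falling. The non-templated share was 52.7 ± 0.922% at 12 h against 46.0 ± 4.34% at 0 h (SD, n = 2; slope 0.0341 ± 0.0064 per hour, adjusted p = 0.000519). At the depth of this arm (572 to 1004 reads per library) the 95% Wilson interval of a single share of this arm reached ± 4.08 percentage points. With the replicate number as a block, the 12 h differences of the templated (adjusted p = 0.00930), non-templated (adjusted p = 0.0216) and mixed shares (adjusted p = 0.0126) of this arm also passed.

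Trimming of miR-143-3p took another course in each experiment, a difference that was not tested. The trimmed share was 33.5%, 30.4%, 29.2%, 29.0%, 32.0%, 33.4%, 35.2% and 36.7% in replicate 1. In replicate 2 it was 32.0%, 31.9%, 33.7%, 32.0%, 32.0%, 31.7%, 34.8% and 34.2%. Replicate 1 dipped until 4 h and climbed after it, while replicate 2 stayed within a narrow band and was higher at 10 and 12 h. The share rose at a slope of 0.0142 ± 0.0045 per hour (SE; adjusted p = 0.0204, limma), with 35.4 ± 1.78% at 12 h against 32.7 ± 1.08% at 0 h (SD, n = 2), and 45.3% of 192 miRNAs passed for this class, 45 rising and 42 falling. Without the 12 h library of replicate 1 the slope was 0.0113 (adjusted p = 0.0831), and within replicate 2 alone it was 0.00733 (adjusted p = 0.195). The share of miR-143-3p equal to the reference had a slope of -0.00878 per hour (adjusted p = 0.0862, limma), which passed with the block (adjusted p = 0.0247). Trimming of miR-145a-3p, near its ceiling throughout, did not pass (adjusted p = 0.205).

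**Figure D5:**
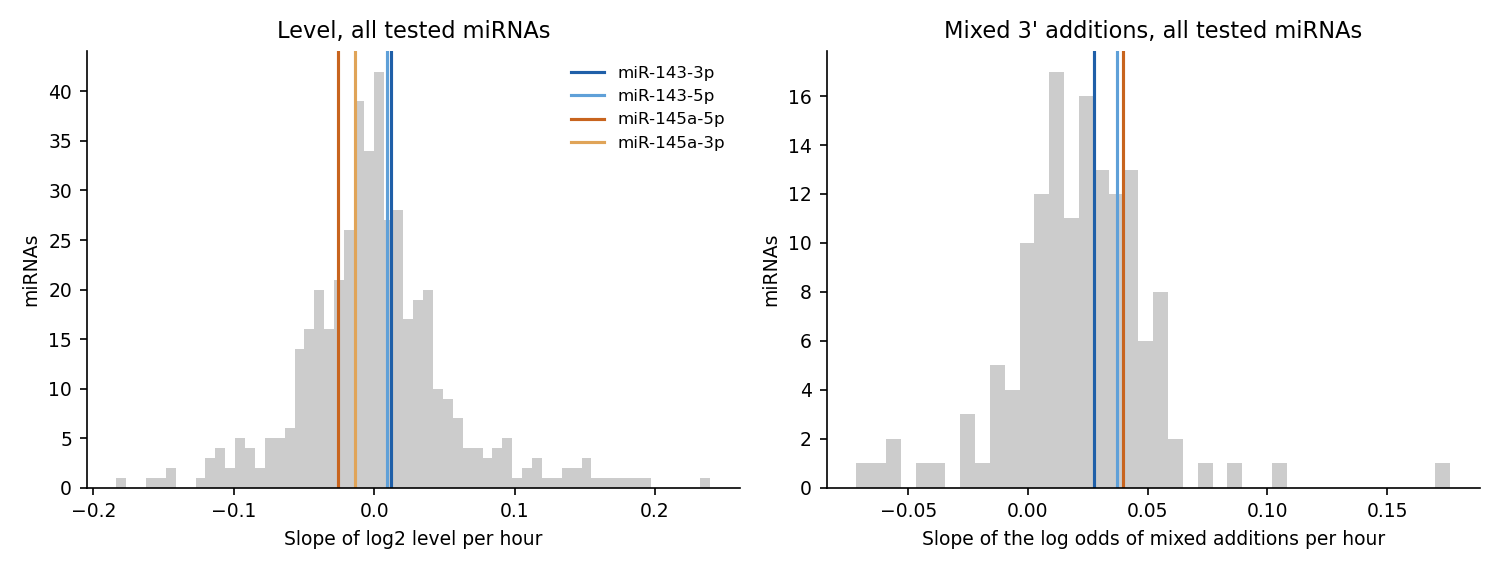
Number of miRNAs by slope over all 16 libraries, for the log2 level of 449 miRNAs (left) and for the log odds of mixed additions of 143 miRNAs (right), with a coloured line for each arm. The levels of the 4 arms, -0.0255 to 0.0117 per hour, lie in the middle of the spread, and the mixed additions of the 3 arms tested, 0.0275 to 0.0398 per hour, lie among the mostly positive slopes of other miRNAs.

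Other miRNAs linked to SRF and muscle were set beside the cluster. Of 16 listed arms in the counts, including the 4 of the cluster, 8 passed the filter on low counts, and none of the 8 passed any change, the 12 h comparison or the trend (edgeR, where 13.8%, 14.3% and 25.2% of all miRNAs passed). With the replicate number as a block, 3 of the 8 passed at 12 h and on the trend: miR-145a-5p, miR-486a-5p and miR-486b-3p. Over all 449 miRNAs 108 passed at 12 h with the block. All 113 that passed the trend without the block passed it with the block too, so at least 113 of the 449 passed with it. No alternative fit called more than 148 on the trend. The median slope of the 8 was 0.0206 per hour and that of all 449 tested miRNAs -0.000945. In the cluster the slopes went both ways: 0.0117 for miR-143-3p, 0.0094 for miR-143-5p, -0.0135 for miR-145a-3p and -0.0255 for miR-145a-5p. The other 4, miR-206-3p and arms of miR-486a and miR-486b, had slopes of 0.0295 to 0.0624. miR-486a-5p, known from heart and skeletal muscle and from red cells, averaged 119.9 CPM with a slope of 0.0436 ± 0.016 per hour (SE; edgeR adjusted p = 0.0510). With the block its slope was 0.0434 (adjusted p = 0.000678), its 12 h difference 0.45 (adjusted p = 0.00701) and its adjusted p for any change 0.00359. miR-486b-3p averaged 159 CPM with a slope of 0.0295 (adjusted p = 0.122), and with the block it passed on the slope (0.0294, adjusted p = 0.00400) and at 12 h (0.34, adjusted p = 0.0359). The miR-486a and miR-486b hairpins overlap on opposite strands and share sequence, so the split of reads between them is uncertain. miR-206-3p, typical of skeletal muscle, averaged 1.45 CPM (slope 0.0624, adjusted p = 0.0843), and miR-145b, a sequence relative of miR-145a, had 4 reads in all 16 libraries together.

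Correlations between the levels of the arms lay between -0.37 and 0.42 from library to library and were not tested. Over the 16 libraries Pearson's r of log2 levels was -0.02 between miR-143-3p and miR-143-5p, -0.37 between miR-143-3p and miR-145a-5p, 0.42 between miR-143-3p and miR-145a-3p and -0.14 between the arms of miR-145a. Between miR-143-5p and the arms of miR-145a it was -0.13 for the 5p and 0.42 for the 3p arm. These r describe libraries that share their run and depth, and they differed by replicate: for miR-143-3p and miR-143-5p r was 0.51 in replicate 1 and -0.64 in replicate 2, and for miR-143-5p and miR-145a-3p it was 0.80 in replicate 1 and -0.26 in replicate 2. Among 262 miRNAs of other hairpins averaging at least 10 CPM, miR-143-3p was most like miR-101b-3p (r = 0.886), miR-29b-3p (0.843) and miR-21a-5p (0.840). These r were 0.671 to 0.782 in replicate 1 and 0.881 to 0.933 in replicate 2. For each arm the 3 highest r of the 262 are given, so high values follow in part from this selection. miR-143-5p was most like miR-125a-5p (0.707), miR-671-3p (0.700) and miR-423-3p (0.609). For this arm the r were 0.286 (miR-423-3p) to 0.792 in replicate 1 and 0.612 to 0.765 in replicate 2. miR-145a-5p was most like miR-324-5p (0.869), miR-872-3p (0.867) and miR-23b-3p (0.821), and these r were 0.874 to 0.937 in replicate 1 and 0.781 to 0.956 in replicate 2. miR-145a-3p was most like miR-450a-5p (0.897), miR-322-5p (0.846) and miR-214-5p (0.837), and in replicate 1 alone these r were 0.497, -0.0697 and 0.159.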

How the data were processed

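Small RNA of 16 libraries (8 times, 2 replicates) was sequenced from 1000 ng of total RNA per library, per the labels' protocols. The authors deposited raw read counts per miRNA and end class in 1 table. The submitters' processing notes list CASAVA 1.8.0. Which aligner, miRBase release and build were used, and how reads matching more than 1 miRNA were assigned, is not given in the sources used here. A further time point in the design text was not analysed here.

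The 8 non-nested classes were summed per mature miRNA. The table had 6511 entries, and 1 identical duplicate was dropped. Levels were tested with edgeR 4.0.16 (quasi-likelihood F-test, filterByExpr at a minimum count of 10, and TMM scaling by 0.935 to 1.07) in R 4.3.3, with Benjamini-Hochberg adjustment at 0.05. The filter left out 718 miRNAs, and at least 99.986% of the reads of each library lay on the 449 tested. A log2 change is said to have passed only with an adjusted p under 0.05. Its SE is the change over the square root of F. All libraries entered 1 fit.

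Arm ratios used limma 3.58.1 on log2 ratios with 0.5 reads added, for hairpins whose arms each average at least 10 reads. Class shares used limma on the natural log odds with 0.5 reads added, for miRNAs averaging at least 200 reads and classes averaging at least 5. Shares of single libraries have 95% Wilson intervals, which describe counting error alone because no molecular identifiers were read. The fits of levels and of class share slopes were tested on simulated data. Those data held no effect of replicate or run, so the test does not cover the pairing of libraries. DESeq2 1.42.0 and limma-voom were alternatives for levels.

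The named miRNAs are the 4 arms, listed SRF-linked and muscle miRNAs that pass a test or average above 10 CPM, the 3 miRNAs most like each arm, and the arms of miR-199a, miR-214, miR-21a and miR-22 for comparison. miR-206-3p and miR-145b were named after their values were seen. The members and lists were chosen with earlier results of these data known. Fits within each replicate and the test of slope differences were added after seeing the data.

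The replicate numbers pair the libraries: deviations from the time means of same-numbered libraries were correlated at r of 0.106 to 0.569 (median 0.267) in all 28 pairs of times. Values with the replicate number as a block are given where they change a call.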

Additional observations from a re-analysis of the deposited data

How the results depend on the processing

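Of 1953 values recomputed for 83 results, 1794 kept their direction and their side of the threshold or moved by less than 1.5 times. Among the levels of the 4 arms, that of miR-145a-5p crossed the threshold most often. With total counts it passed at 12 h (-0.53) and on the slope (-0.0388). Under that scaling falls outnumbered rises over all miRNAs (45 to 23 at 12 h and 111 to 37 on the slope). The slope of miR-145a-5p also passed among miRNAs of at least 10 CPM (-0.0258), from reads equal to the reference only (-0.0271) and in replicate 1 alone (-0.0350). With the replicate number as a block it passed at 12 h (-0.37) and on the slope (-0.0258). Without 1 library its slope was -0.0289 to -0.0194, and it passed without the 2 h or the 10 h library of replicate 2.

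Total counts also reversed differences that had not passed: miR-143-3p was at -0.0302 at 6 h, -0.10 at 10 h and -0.00178 per hour, miR-143-5p at -0.00396 per hour and miR-145a-3p at -0.0918 at 8 h. From reads equal to the reference the slope of miR-143-5p was -0.0293 and the 12 h arm ratio of miR-143 was 0.16, while miR-145a-3p, with almost no such reads, gave no value. Without the low-count filter miR-145a-3p was at 0.0028 at 10 h. Without the 0 h libraries the slope of the A share of miR-143-5p was 0.0074. In replicate 2 alone the arm ratio slopes were 0.0049 for miR-143 and -0.0128 for miR-145a, and the ratio of miR-145a-5p to miR-143-3p had r = -0.303. The U share of miR-145a-5p also lost its call at the lower read minimum, and both its U and C shares did without the 0 h libraries. The cause of these changes was not tested.

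Counts of miRNAs that passed also moved. For any change it was 101 when no low-count filter was used, 39 among miRNAs of at least 10 CPM and 110 with the block. At 2 h it was 20 without a filter, 17 with DESeq2 and 5 when only the groups compared were fitted. Among miRNAs of at least 10 CPM, where fewer were tested, it was 0 at 1 h, 7 at 2 h, 15 at 4 h and 20 at 6 h. With the block it was 5, 31, 66, 77, 81, 84 and 108 at 1, 2, 4, 6, 8, 10 and 12 h, with 24 arm ratios and 451 class shares at 12 h. Among the 83 results and the slopes of the comparison hairpins and arms, the block changed no other call than those given here or beside a result. From reads equal to the reference 1 miRNA passed at 1 h. The trend had 59 miRNAs and 16 arm ratios without the 0 h libraries, and 52 and 6 in replicate 2 alone.

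Leaving out 1 library gave 36 to 60 miRNAs for any change. At 1, 2, 4, 6, 8, 10 and 12 h it gave 0 to 3, 2 to 13, 14 to 36, 16 to 38, 20 to 43, 23 to 60 and 37 to 65 miRNAs. At 12 h 2 to 13 arm ratios and 98 to 208 class shares passed. Where a time was left with 1 library, that library was assumed to vary like the others. The log2 difference of miR-143-3p ranged between -0.0094 and 0.158 (1 h), -0.20 and 0.0788 (4 h), -0.0225 and 0.174 (6 h), or -0.214 and 0.320 (10 h). That of miR-145a-3p ranged between -0.0077 and 0.20 (1 h), -0.0810 and 0.21 (4 h), -0.25 and 0.42 (6 h), -0.24 and 0.32 (8 h), -0.22 and 0.18 (10 h), or -0.27 and 0.0198 (12 h). The arm ratio of miR-143 had 12 h differences of -0.12 to 0.0745 and slopes of -0.0084 to 0.0081, and that of miR-145a 12 h differences of -0.0150 to 0.46. The Pearson correlation of the ratio of miR-145a-5p to miR-143-3p with hour was -0.714 to -0.447. It no longer passed without any of 7 libraries, namely those at 0, 8, 10 and 12 h of replicate 1 and at 0, 1 and 12 h of replicate 2.

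The design has 2 libraries per time, which limits the precision of each difference. Depth limits miR-143-5p most, at 572 to 1004 reads per library.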
